A study of Mus musculus with 4 samples.

Results

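Genes of the tricarboxylic acid (TCA) cycle and of pyruvate metabolism were examined in myeloid-derived suppressor cells (MDSCs), immature granulocytic and monocytic cells that expand with a tumor and restrain T cells. The 28 genes were taken by symbol and, by that choice, hold no subunit of the respiratory chain. All 28 were found among the 53465 genes listed, each in a single row, and all 28 had enough reads to be tested. MDSCs came from the spleens of BALB/c mice bearing 4T1 mammary tumors and were sorted with beads against Gr-1, an epitope of Ly-6G and Ly-6C. The labels give day 21 after tumor cell injection for the sort, whereas the methods give an earlier day. After the sort, cells of both groups were cultured for 6 h, either in control medium (control group, 2 libraries) or with 5 μg/mL epigallocatechin-3-gallate (EGCG treatment group, 2 libraries), the main catechin of green tea. All cells therefore came from tumor-bearing animals, so that a healthy baseline was not measured. Separate mice or wells are not named for the replicates in either source, so that p values measure the spread between these libraries, which may be technical.

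The TCA cycle burns acetyl groups in the mitochondrial matrix and hands the electrons to the respiratory chain. Pyruvate enters through a carrier in the inner membrane and becomes acetyl-CoA in the pyruvate dehydrogenase complex, or oxaloacetate through pyruvate carboxylase. Malate, aspartate, glutamate and citrate link the cycle to the cytosol. In activated myeloid cells the cycle is known for its branch to itaconate, which is made from the intermediate cis-aconitate by the enzyme encoded by Acod1.

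Library totals were between 17767318 and 18390385 counts. The unit of level is CPM, the count scaled to a common library size with edgeR's TMM factors, and levels of different genes are compared only as CPM per kb of exon. Differences are log2 fold changes of EGCG over control from edgeR's quasi-likelihood test, with p values adjusted by the Benjamini-Hochberg method over 14682 tested genes and a threshold of 0.05. With 2 libraries against 2, an exact permutation test of a single value cannot go below a two-sided p of 0.333. Neutrophil markers had counts in every library (6 of 6 genes, S100a8, S100a9, Ly6g, Csf3r, Cxcr2 and Retnlg), and so had the monocyte markers (5 of 5). Genes of other cells were also present, since 6 of 6 splenic macrophage markers and 4 of 4 B cell markers had counts in every library.

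None of the 28 genes passed the test for differential expression between the EGCG treatment group and the control group. By edgeR's quasi-likelihood test, 0 of 28 had an adjusted p under 0.05 (adjusted p from 0.295 to 0.986), against 0.15% of all tested genes. At an unadjusted p under 0.05 there were 3 genes, of which 1, Fh1, was higher (5.22% of all tested genes were higher at this level) and 2, Idh3a and Pcx, were lower (7.02% of all tested genes). This count was 5 with a correction for gene length, 2 by library size only, 2 without control replicate 2 or EGCG replicate 2, and 1 without EGCG replicate 1. The shares of all tested genes at this level are not given for those settings, so these counts are not set against a background. DESeq2 called 0 of the 24 genes to which it gave an adjusted p, which leaves out Mpc1, Pcx, Pdhx and Suclg2. Among all tested genes it called 64 of the 7850 to which it gave an adjusted p. Of all 28, 0 had an unadjusted p under 0.05 by DESeq2 (6.28% of all tested genes). The log2 fold changes ran from -0.77 (Pcx) to 0.29 (Mpc1), with standard errors (SE) from 0.07 to 0.34. For 25 of the 28 genes the 95% interval of the difference lay within a 1.5-fold change in either direction. The same held for 9250 of the 14682 tested genes.

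The small differences leaned toward the EGCG treatment group. The mean was higher with EGCG for 20 of the 28 genes, whereas 50.6% of all tested genes had a log2 fold change above 0. The median log2 fold change of the 28 genes was 0.09, a 1.06-fold difference, beside a median of 0.0031 over all tested genes. It was 0.0535 with scaling by library size only and 0.0561 without EGCG replicate 2. The EGCG libraries both lay above both control libraries for 12 of the 28 genes (21.5% of all tested genes) and below them for 3 genes (21.2% of all tested genes), and the groups overlapped for 13. The difference between the group means was larger than the gap between the replicates of either group for 9 genes (29.6% of all tested genes).
Taken library by library, the median deviation of the 28 genes from their own mean over the 4 libraries, in log2 CPM, was -0.0422 in control replicate 1, -0.0258 in control replicate 2, 0.0284 in EGCG replicate 1 and 0.0250 in EGCG replicate 2. Both control libraries were thus on the low side and both EGCG libraries on the high side, by a few percent. As a share of all reads counted on genes, without TMM scaling, the 28 genes took 0.2068% and 0.2028% in the control libraries, against 0.2065% and 0.2117% in the EGCG libraries, and the groups overlapped. The number of genes with both EGCG libraries above both control libraries was 7 when library size alone was used for scaling (16.2% of all tested genes in that setting), and 19 without control replicate 2 (37.1% of all tested genes).

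**Figure D1:**
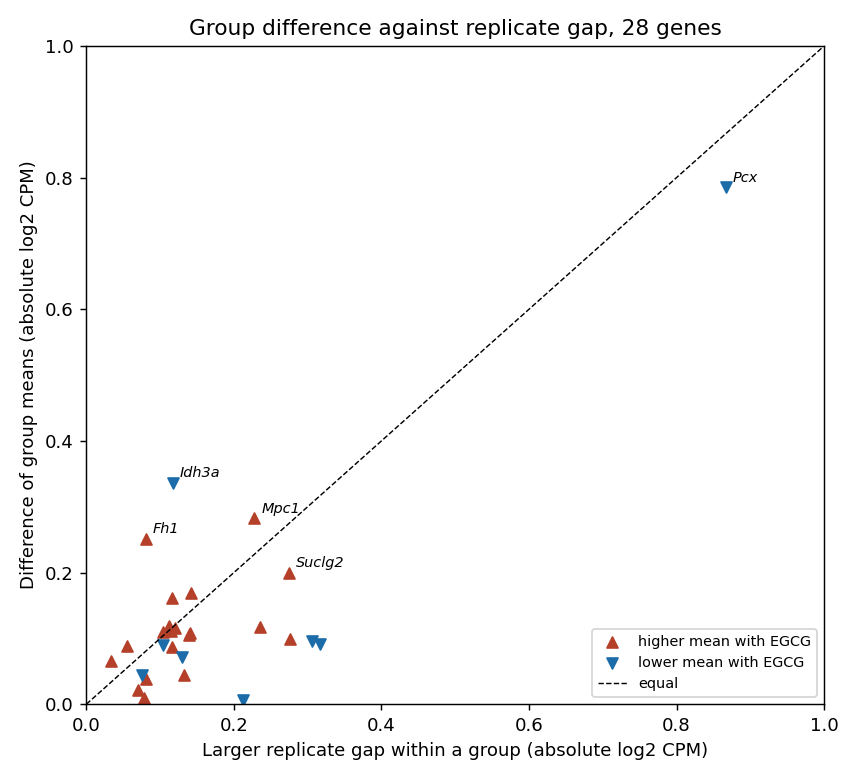
Absolute difference of the group means (y axis, log2 CPM) against the larger of the gaps between the replicates of a group (x axis, log2 CPM) for each of the 28 genes, with upward triangles for genes whose mean was higher with EGCG. Of the 28 points, 9 lie above the dashed line of equality, with Idh3a and Fh1 farthest from it, and Pcx has both the largest difference and the largest gap.

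Pyruvate enters mitochondria through a carrier of the inner membrane that is built from MPC1 and MPC2. Mpc1 (ENSMUSG00000023861, chromosome 17, 8282904 to 8297661 of GRCm38) was at 3.89 and 3.86 CPM in the control libraries and at 5.13 and 4.37 CPM in the EGCG libraries. Both EGCG values lay above both control values. Its log2 fold change was 0.29 (SE 0.21, adjusted p = 0.611 by edgeR), and 0.17 without EGCG replicate 1. The counts of Mpc1 were between 69 and 93, and 23.1% of its exonic bases also belong to exons of the antisense transcript 4930506C21Rik, which had 5 to 12 counts per library.
Mpc2 (ENSMUSG00000026568, chromosome 1, 165460637 to 165481214) was at 37.8 and 34.3 CPM in the control libraries and at 42.5 and 38.7 CPM in the EGCG libraries, again without overlap of the groups. On edgeR's fit, the log2 fold change of Mpc2 was 0.17 (SE 0.10, adjusted p = 0.519 by edgeR), with a 95% interval from -2.54% to 29.8%. It was 0.10 without control replicate 2 and likewise without EGCG replicate 1.

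Pcx, which encodes pyruvate carboxylase, the enzyme that refills oxaloacetate, was the lowest of the 28 genes and had the largest difference. Pcx (ENSMUSG00000024892, chromosome 19, 4510472 to 4621752) had counts of 46 and 38 without EGCG, and of 17 and 32 with EGCG. In CPM, the control libraries were at 2.52 and 2.13 and the EGCG libraries at 0.938 and 1.79. Every EGCG value was below every control value, but EGCG replicate 1 stood far below EGCG replicate 2. The log2 fold change of Pcx was -0.77 (SE 0.34, adjusted p = 0.391 by edgeR). It was -0.37 without EGCG replicate 1 and -1.30 without EGCG replicate 2, so that its size rests on which EGCG library is used.

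The pyruvate dehydrogenase complex turns pyruvate into acetyl-CoA and joins an E1 component (Pdha1 and Pdhb), an E2 component (Dlat), an E3 component (Dld) and the E3-binding protein (Pdhx). Pdha1 (ENSMUSG00000031299, chromosome X, 160122209 to 160138413), the E1 alpha subunit whose phosphorylation switches the complex off, was at 73.6 and 72.1 CPM in the control libraries and at 75.6 and 81.8 CPM in the EGCG libraries. The EGCG values were the higher ones, with a log2 fold change of 0.11 (SE 0.08, adjusted p = 0.618 by edgeR) that was 0.05 without EGCG replicate 2 and 0.17 without EGCG replicate 1. Exons of Map3k15 on the other strand cover 16.1% of the exonic bases of Pdha1, and Map3k15 had 913 to 1026 counts per library.
The other E1 subunit and E3 had like values. Pdhb had a log2 fold change of 0.11 (SE 0.09) and Dld one of 0.12 (SE 0.08), in each case with both EGCG libraries above both control libraries. Without EGCG replicate 1 the values were 0.06 for Pdhb and 0.07 for Dld. Pdhb has 17.9% of its 31-base words in common with other genes, mainly with the processed pseudogene Gm6123, which had 120 to 156 counts per library. The E2 and E3-binding genes had values below 0, with -0.07 for Dlat (SE 0.11) and -0.11 for Pdhx (SE 0.17), and their groups overlapped. For Dlat, leaving out control replicate 1 gave -0.0092 and leaving out EGCG replicate 1 gave -0.0049. Leaving out control replicate 2 gave -0.12 for Dlat, and leaving out EGCG replicate 2 gave -0.14. For Pdhx the log2 fold change was 0.06 when control replicate 1 was left out.

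The first steps of the cycle run from citrate synthase (Cs) to isocitrate dehydrogenase 3, the NAD-dependent enzyme that is built from the subunits of Idh3a, Idh3b and Idh3g. Cs (ENSMUSG00000005683, chromosome 10, 128337734 to 128362479) was at 143.2 and 151.3 CPM in the control libraries and at 145.0 and 158.9 CPM in the EGCG libraries. These groups overlapped, and the log2 fold change of Cs was 0.05 (SE 0.08, adjusted p = 0.865 by edgeR) with a 95% interval from -8.02% to 15.9%.
Idh3a (ENSMUSG00000032279, chromosome 9, 54586334 to 54604661) encodes the catalytic alpha subunit. It was at 15.0 and 16.3 CPM in the control libraries (15.7 ± 0.904, SD, n = 2) and at 12.6 and 12.15 CPM in the EGCG libraries (12.4 ± 0.301, SD, n = 2). Both EGCG libraries were below both control libraries, and the difference was larger than either replicate gap. Its log2 fold change was -0.34 (SE 0.12, 95% interval from -0.61 to -0.07), the smallest adjusted p of the 28 genes (0.295 by edgeR). With a library left out the value ran from -0.39 to -0.28.
The values of the regulatory subunits were nearer to 0. Idh3b had a log2 fold change of 0.02 (SE 0.08) with overlapping groups, and Idh3g one of 0.07 (SE 0.08) with both EGCG libraries above both control libraries. Whether Idh3a differed from Idh3b and Idh3g in its response was not tested.

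Isocitrate can also be oxidized by NADP-dependent enzymes, IDH1 in the cytosol and IDH2 in mitochondria, and malate by the mitochondrial malic enzyme ME2. Idh1 (ENSMUSG00000025950, chromosome 1, 65158616 to 65186500) was at 101.4 and 102.4 CPM in the control libraries and at 106.3 and 110.5 CPM in the EGCG libraries. Its control libraries were close and both EGCG libraries were higher (log2 fold change 0.09, SE 0.07, adjusted p = 0.677 by edgeR). Idh2 (ENSMUSG00000030541, chromosome 7, 80094846 to 80115392) was at 14.2 and 11.4 CPM in the control libraries and at 12.9 and 11.1 CPM in the EGCG libraries. The replicates of Idh2 differed more than the groups did, and its log2 fold change was -0.10 (SE 0.15, adjusted p = 0.845 by edgeR), which became 0.08 without control replicate 1 and 0.0093 without EGCG replicate 2. Me2 had a log2 fold change of 0.11 (SE 0.08) with overlapping groups, and 0.04 without EGCG replicate 2.

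The oxoglutarate dehydrogenase complex, with its E1 component encoded by Ogdh and its E2 component by Dlst, and succinyl-CoA ligase follow. Ogdh (ENSMUSG00000020456, chromosome 11, 6291633 to 6356642) was at 153.3 and 146.6 CPM in the control libraries and at 135.9 and 146.1 CPM in the EGCG libraries. EGCG replicate 2 was just below control replicate 2, so that the groups did not overlap by a narrow margin. The log2 fold change of Ogdh was -0.09 (SE 0.08, adjusted p = 0.688 by edgeR), and that of Dlst was -0.04 (SE 0.07). Without EGCG replicate 1 the value of Ogdh was -0.03, and without EGCG replicate 2 it was -0.14. Without control replicate 1 the value was -0.05 for Ogdh and -0.0010 for Dlst. For Dlst it was -0.08 without control replicate 2. With a correction for gene length the value of Dlst was 0.06.
Succinyl-CoA ligase joins an alpha subunit (Suclg1) to a beta subunit that uses ADP (Sucla2) or GDP (Suclg2). The log2 fold changes of Sucla2 (0.01) and Suclg1 (-0.01) were the nearest to 0 among the 28 genes. Suclg2 (ENSMUSG00000061838, chromosome 6, 95473009 to 95718800) was at 5.26 and 6.38 CPM in the control libraries and at 6.45 and 6.89 CPM in the EGCG libraries, which did not overlap. Its log2 fold change was 0.20 (SE 0.18, adjusted p = 0.712 by edgeR), with 0.07 when control replicate 1 was left out and 0.34 when control replicate 2 was. In this gene 20.1% of the 31-base words also occur in the processed pseudogene Gm15163, which had 28 to 31 counts per library.

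The last steps of the cycle are those of fumarase and malate dehydrogenase. Fh1 (ENSMUSG00000026526, chromosome 1, 175600374 to 175625635), which encodes fumarase, was at 25.0 and 23.6 CPM in the control libraries (24.3 ± 0.960, SD, n = 2) and at 28.8 and 29.1 CPM in the EGCG libraries (28.9 ± 0.189, SD, n = 2). Both EGCG libraries were above both control libraries, and replicates were close in each group. The log2 fold change of Fh1 was 0.25 (SE 0.10, 95% interval from 0.04 to 0.46), with an adjusted p of 0.334 by edgeR. It ran from 0.21 to 0.30 when a library was left out. Mdh2, the mitochondrial malate dehydrogenase, had a log2 fold change of 0.11 (SE 0.08), and its groups overlapped. The value of Mdh2 was 0.04 without EGCG replicate 2 and 0.18 without EGCG replicate 1.

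The upstream sequences of Fh1 and Pcx are shown because these genes, with Idh3a, had an unadjusted p under 0.05. Each is the 120 bases before the RefSeq transcription start (GRCm38.p6), 5′ to 3′ on the strand of the gene, with matches to the GC box (GGGCGG) and the CCAAT box (CCAAT) on either strand in capitals. Fh1 lies on the minus strand, and its sequence covers chr1:175625636-175625755. Pcx lies on the plus strand, and the sequence before its first start covers chr19:4510352-4510471.
Fh1: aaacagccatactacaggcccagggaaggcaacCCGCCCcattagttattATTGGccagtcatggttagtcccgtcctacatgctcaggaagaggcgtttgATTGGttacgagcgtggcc
Pcx: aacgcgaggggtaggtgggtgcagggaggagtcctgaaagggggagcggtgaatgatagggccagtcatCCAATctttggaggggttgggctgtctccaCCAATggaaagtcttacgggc
Fh1 held 1 GC box and 2 CCAAT boxes in this window, and Pcx held 2 CCAAT boxes and 0 GC boxes. A later RefSeq start of Pcx has 0 of either in the 120 bases before it, and which start these cells use was not measured. RefSeq promoters (250 bases before to 50 after a start) were found for 26 of the 28 genes, all but Idh3a and Me2, with 34 starts in all. A GC box was in 70.6% of these 34 promoters, beside 35.7% of 32851 mouse promoters of the same length, and a CCAAT box in 67.6%, beside 37.4%. The cAMP response element TGACGTCA was in 11.8% (1.79% of all promoters), at starts of Mdh2 and Ogdh, the latter with several starts that share sequence. The element TCAAGGTCA, the binding letters of estrogen-related receptors, was in 0 of the 34 (0.423% of all promoters). These are matches of letters, and the 28 genes were not compared with promoters of other expressed genes.

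Shuttles carry malate, aspartate, glutamate and citrate across the inner membrane. For all 6 genes of this group the mean was higher with EGCG (50.6% of all tested genes had a log2 fold change above 0). By edgeR, 0 of the 6 had an unadjusted p under 0.05 (5.22% of all tested genes were higher and 7.02% lower at this level). Glud1, glutamate dehydrogenase, was at 317.0 and 315.9 CPM in the control libraries and at 323.0 and 349.9 CPM in the EGCG libraries, with a log2 fold change of 0.09 (SE 0.08) that was 0.03 without EGCG replicate 2. Slc25a1, the citrate carrier, had a log2 fold change of 0.16 (SE 0.09), and Got2, the mitochondrial aspartate aminotransferase, one of 0.11 (SE 0.08). The value of Slc25a1 was 0.11 without control replicate 2, and that of Got2 was 0.06 without control replicate 1. For these 3 genes both EGCG libraries were above both control libraries (21.5% of all tested genes).
Groups overlapped for Got1, the cytosolic aspartate aminotransferase (0.04, SE 0.09), Mdh1, the cytosolic malate dehydrogenase (0.09, SE 0.10), and Slc25a11, the oxoglutarate carrier (0.12, SE 0.09), where each value is a log2 fold change. That of Mdh1 was -0.03 without control replicate 1, and that of Got1 was -0.0001 without EGCG replicate 2. Slc25a11 was at 147.0 CPM in EGCG replicate 1 and at 124.9 CPM in EGCG replicate 2, beside 123.4 and 126.5 CPM in the control libraries, so that 1 library made its difference. Without EGCG replicate 1 its log2 fold change was 0.0016, and without EGCG replicate 2 it was 0.24. Exons of Rnf167 on the other strand cover 8.92% of the exonic bases of Slc25a11, and Rnf167 had 2344 and 2257 counts in the control libraries, 2643 in EGCG replicate 1 and 2495 in EGCG replicate 2. Got2 has 30.9% of its 31-base words in common with other genes, mainly with the noncoding transcript Gm10874, which had 2 to 9 counts per library.

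**Figure D2:**
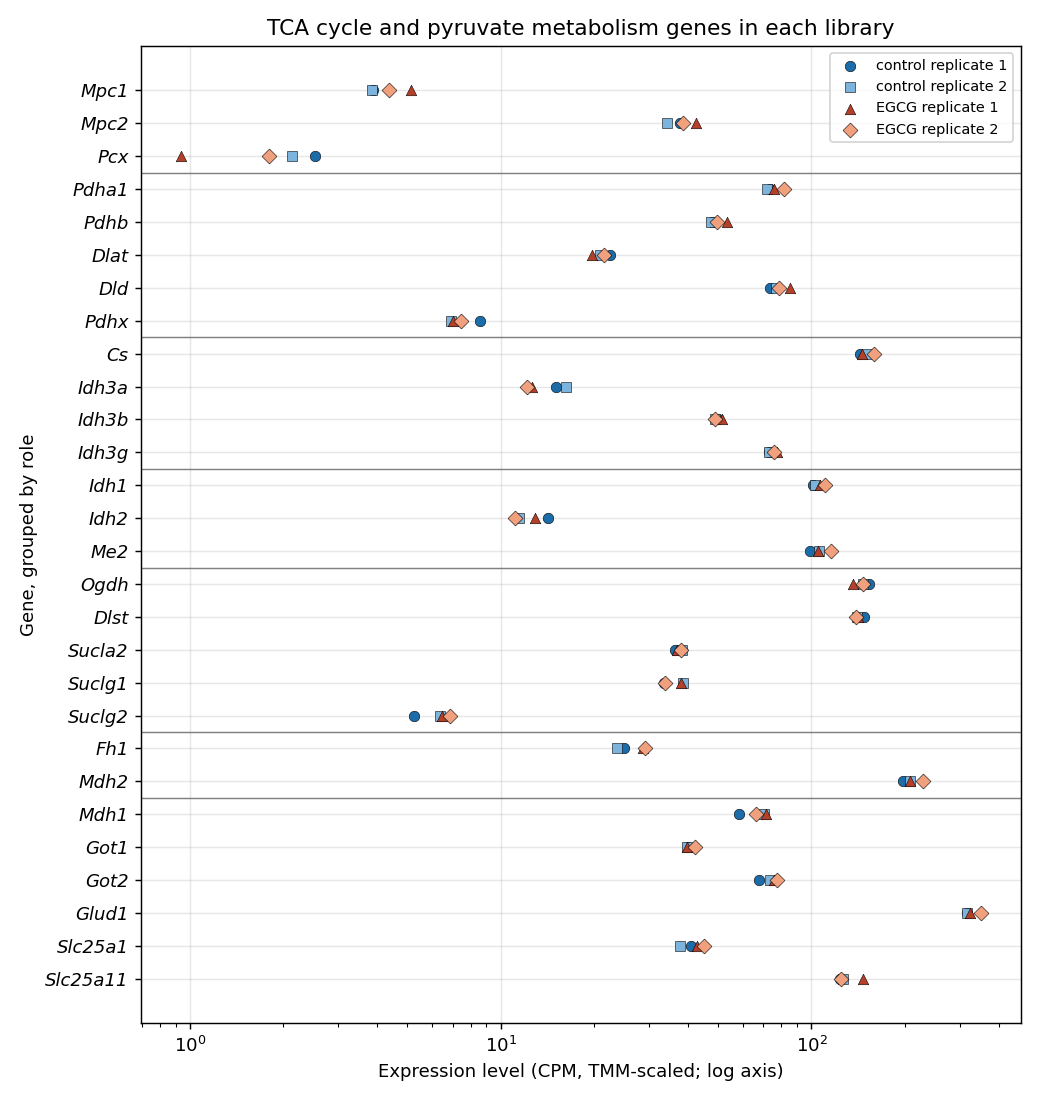
Level of each of the 28 genes (CPM, log axis) in control replicates 1 and 2 and EGCG replicates 1 and 2, with genes grouped by role. Symbols of the 4 libraries nearly coincide for most genes, and they separate most for Pcx, where EGCG replicate 1 is at 0.938 CPM and control replicate 1 at 2.52 CPM.

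**Figure D3:**
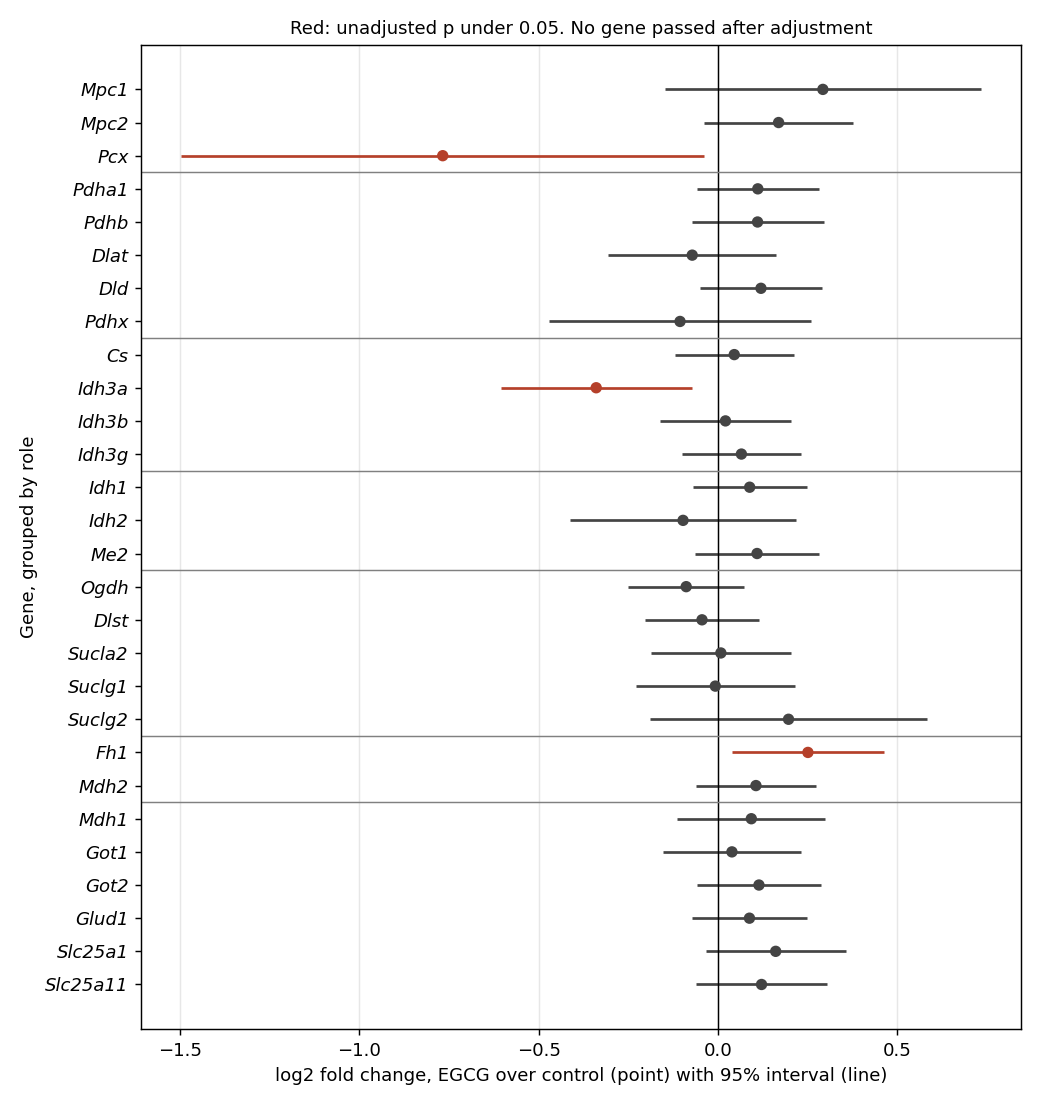
Log2 fold change of EGCG over control for each of the 28 genes (points) with the 95% interval (lines), grouped by role. The intervals of Pcx, Idh3a and Fh1, in red, do not cross 0, those of the other 25 genes do, and 0 of the 28 genes passed the adjusted threshold.

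The levels of the 28 genes spanned a wide range. As the mean of the 4 libraries, Glud1 was highest at 77.5 CPM per kb, followed by Slc25a11 at 61.5 and Mdh2 at 59.1 CPM per kb. Slc25a11 and Mdh2 did not differ beyond their spread, since the libraries of each gene ran from 58.2 to 69.4 and from 55.4 to 64.2 CPM per kb. Idh1 came next at 37.9 CPM per kb. Among the lowest genes were Idh3a at 2.76, Mpc1 at 2.07, Pdhx at 1.91, Suclg2 at 1.35 and Pcx at 0.388 CPM per kb. The length used is that of all annotated exons of a gene (7344 bases for Mpc2), and which transcripts the cells use was not measured.
Subunits of one complex were not at one level. Within isocitrate dehydrogenase 3, Idh3g was at 27.7, Idh3b at 14.6 and Idh3a at 2.76 CPM per kb. In the pyruvate dehydrogenase complex, Dld, which also serves the oxoglutarate dehydrogenase complex, was at 21.3 and Pdha1 at 20.3 CPM per kb, whereas Pdhb was at 12.8, Dlat at 4.33 and Pdhx at 1.91 CPM per kb.

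Pairs of enzymes or subunits with like roles, and the parts of the pyruvate carrier, were then compared as ratios of counts per exonic kb within each library, which do not depend on library scaling. Idh2 to Idh1 was 0.150 and 0.119 without EGCG, and 0.130 and 0.107 with EGCG. RNA for the cytosolic enzyme was thus the more abundant in every library, and the groups overlapped. Mdh2 to Mdh1 was 2.44 and 2.12 without EGCG, and 2.10 and 2.49 with EGCG, with overlap. Got2 to Got1 was near 1, at 0.894 and 0.978 without EGCG, and 1.00 and 0.971 with EGCG.
Sucla2 to Suclg2 was 7.99 and 6.96 without EGCG, and 6.65 and 6.39 with EGCG, and Mpc2 to Mpc1 was 2.76 and 2.52, and 2.35 and 2.51. In these last pairs both EGCG libraries were below both control libraries, for Mpc2 to Mpc1 by a margin of 2.52 to 2.51. As log2 ratios, the groups differed by -0.19 for Sucla2 to Suclg2 (pooled SD 0.10) and by -0.12 for Mpc2 to Mpc1 (pooled SD 0.08). Without control replicate 1 these differences were -0.09 and -0.05, and without control replicate 2 they were -0.29 and -0.18. For Mpc2 to Mpc1 the difference was -0.07 without EGCG replicate 1. In a two-sided exact permutation test, the p was 0.333 for both, the smallest that 2 libraries against 2 can give, and it was 0.667 or 1 for the other 3 pairs.

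**Figure D4:**
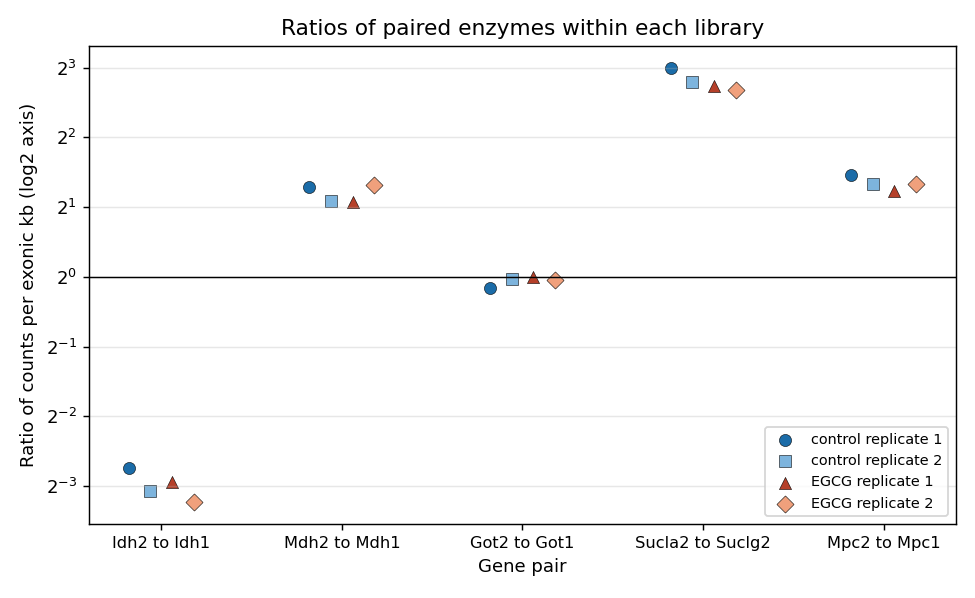
Ratio of counts per exonic kb (y axis, log2 scale) for 5 pairs of enzymes or subunits, with 1 symbol for each of the 4 libraries and a line at equal levels. Idh2 to Idh1 lies between 0.107 and 0.150 and Sucla2 to Suclg2 between 6.39 and 7.99, and only the last pairs on the right have both EGCG symbols below both control symbols.

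Of 51 other genes around the cycle, 45 could be tested, and again none passed the test. By edgeR's quasi-likelihood test 0 of 45 had an adjusted p under 0.05 (from 0.228 to 0.998), against 0.15% of all tested genes. An unadjusted p under 0.05 was found for 4, of which 3 were higher (5.22% of all tested genes) and 1 was lower with EGCG (7.02%). The number at this unadjusted level was 7 with a correction for gene length and 6 with the replicate number as a block. Shares of all tested genes at this level are not given for these 2 settings. DESeq2 called 0 of the 25 genes to which it gave an adjusted p, beside 64 of 7850 among all tested genes. By DESeq2, 3 of the 45 had an unadjusted p under 0.05 (6.67%, beside 6.28% of all tested genes). Their median log2 fold change was 0.03, with 25 of 45 above 0 (50.6% of all tested genes). Pdk4, Gls2, Me3, Pck1, Ogdhl and Dhtkd1 had 8 counts or fewer in every library and were not tested.
Acod1, which diverts cis-aconitate to itaconate, was at 316.3 and 360.2 CPM in the control libraries and at 270.4 and 292.1 CPM in the EGCG libraries, without overlap. Its log2 fold change was -0.27 (SE 0.08, adjusted p = 0.228 by edgeR), and the value ran from -0.35 to -0.17 with a library left out, the latter without control replicate 2. The mean level of Acod1 over the 4 libraries was 118.1 CPM per kb. Acly, the cytosolic citrate lyase, had a log2 fold change of -0.04 (SE 0.07), which lay between -0.08 (without EGCG replicate 2) and -0.0034 (without EGCG replicate 1).
Sdhb, the iron-sulfur subunit of succinate dehydrogenase, was at 77.9 and 84.3 CPM in the control libraries and at 94.1 and 99.6 CPM in the EGCG libraries. Sdhb thus differed by 0.26 on the log2 scale (SE 0.08, adjusted p = 0.228 by edgeR). Ldha, the lactate dehydrogenase subunit that favors lactate, was at 502.7 and 520.7 CPM in the control libraries and at 600.4 and 590.0 CPM in the EGCG libraries (log2 fold change 0.22, SE 0.07, adjusted p = 0.260 by edgeR). Sirt5, a mitochondrial deacylase, had counts of 33 and 29 without EGCG and of 47 in each EGCG library, with a log2 fold change of 0.60 (SE 0.27, adjusted p = 0.400 by edgeR). For all 3 genes both EGCG libraries were above both control libraries (21.5% of all tested genes, and 14 of these 45). They were named for an unadjusted p under 0.05 by edgeR in the same libraries, a choice that favors such separation.
Of the kinases that switch pyruvate dehydrogenase off, Pdk3 was the most abundant (11.4 to 14.5 CPM per kb over the 4 libraries) and had a log2 fold change of 0.0052 (SE 0.11). That of Pdk1 was 0.05 (SE 0.25), and that of Pdk2 was 0.32 (SE 0.19), where both EGCG libraries lay above both control libraries.

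Some marker lists moved with the groups, and their part in the differences above was not tested. The summed level of 6 splenic macrophage markers was 359.8 and 365.4 CPM in the control libraries and 287.6 and 302.3 CPM in the EGCG libraries, with counts for 6 of 6 genes in every library. Summed levels of 5 monocyte markers were 1006 and 970.9 CPM, and 922.6 and 920.8 CPM. The 4 proliferation markers summed to 490.0 and 495.5 CPM in the control libraries and to 394.1 and 388.0 CPM in the EGCG libraries, and 1 of them, Mki67, passed the adjusted threshold. For the 4 endothelial markers the sums were 113.0 and 124.8 CPM, and 93.9 and 98.0 CPM, with 3 of 4 genes detected in every library. Most endothelial counts came from Pecam1, with far fewer from Cdh5 and Kdr, so that the sums reflect mainly Pecam1. The median log2 fold change of these 3 endothelial genes was -0.75, the lowest of the marker lists, and 0 of them passed the adjusted threshold. In the other lists that were lower without overlap, this median ran from -0.25 (splenic macrophage) to -0.08 (platelet). The 4 platelet markers summed to 36.25 and 39.3 CPM in the control libraries and to 32.4 and 32.0 CPM in the EGCG libraries. The neutrophil markers overlapped between the groups, from 45890 to 56300 CPM in the control libraries and from 55630 to 65020 CPM in the EGCG libraries. The groups also overlapped for the dendritic cell, B cell, erythroid, and basophil and mast cell markers. Other lists were higher with EGCG without overlap. Of all tested genes, taken singly, 21.5% lay above and 21.2% below without overlap. The 7 immature neutrophil granule genes summed to 12550 and 13440 CPM in the control libraries and to 13500 and 13750 CPM in the EGCG libraries. For 4 T and NK cell markers the sums were 81.2 and 92.3 CPM, and 94.1 and 96.9 CPM. Most counts of this T and NK cell list came from Cd3d alone, with far fewer from Cd3e, Cd3g and Ncr1. The sums thus reflect mainly 1 gene, not a shared rise of the 4 markers. The 4 mammary epithelium markers, of which Krt14 was at 0 in every library, summed to 4.66 and 3.86 CPM, and to 6.51 and 6.61 CPM. These sums were mostly Epcam, with 315 counts over the 4 libraries, beside 72 for Krt18 and 3 for Krt8. In bulk RNA, fewer cells of a type and less RNA per cell cannot be told apart.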

How the data were processed

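RNA-seq was performed on 2 control and 2 EGCG libraries of MDSCs. Per the submitters' notes and the methods, the authors aligned reads with STAR (2.6.0c) to GRCm38, counted them with featureCounts (1.6.2) on Ensembl release 91 (without strand, by the name of the table), and deposited whole-number counts without normalization. Handling of multi-mapping reads is not given in the sources used here. The table had 0 columns of other samples.

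Genes were filtered with filterByExpr (minimum count of 10) and compared with edgeR 4.0.16 (TMM scaling, legacy quasi-likelihood test, no block) in R 4.3.3, over all tested genes. Standard errors are the log2 fold change divided by the square root of F. Exonic lengths and 31-base words came from GENCODE M21, promoters from RefSeq (GRCm38.p6). The fits were tested on simulated data, except those with a library left out. The members and lists were chosen with earlier results of these data known. Per-library values were given for genes with an unadjusted p under 0.05, for the 3 extreme fold changes in each direction among genes whose groups did not overlap, and for Pdha1, Cs, Idh1, Idh2, Ogdh, Mpc1 and Mpc2. Of the other genes around the cycle, the Pdk genes, Acod1 and Acly were named, and those with an unadjusted p under 0.05. Another gene of this rule is not reported here. Glud1 and Slc25a11 were added after their values were seen. Alternatives were other filters, scalings and fits, DESeq2 1.42.0, a loess correction for exonic length (span 0.4), a replicate block, and leaving out each library.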

Additional observations from a re-analysis of the deposited data

How the results depend on the processing

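The count of 0 differentially expressed genes among the 28 was the same under all 10 alternatives and with each library left out, and so was the count of 0 among the other genes around the cycle. Of all tested genes, 0% were called with no filter, so that a count of 0 was fixed there, 0.0341% with the length correction and up to 2.31% without control replicate 2. Leaving out a library leaves its group with 1, which is assumed to vary like the other group. The smallest adjusted p of the 28 genes was between 0.139 (without EGCG replicate 2) and 0.690 (no filter). Between 18 and 22 of the 28 genes had a log2 fold change above 0 in every setting. The median log2 fold change was 0.0535 with library size only, where the median of all tested genes was -0.03, and 0.08 with the length correction, where that of all tested genes was 0.03. It ran from 0.0561 to 0.0985 with a library left out. The number of genes with both EGCG libraries above both control libraries was 7 by library size alone (16.2% of all tested genes) and lay between 15 and 19 with a library left out (34.2% to 37.1% of all tested genes). The number below ran from 4 to 7 with a library left out (33.5% to 36.9%), and fewer libraries overlap less by construction. Of the 28 genes, 24 kept their direction under the alternatives and 20 with each library left out.

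Some directions turned, and the cause was not tested. With library size only, the log2 fold change was -0.0140 for Idh3b, -0.0262 for Sucla2 and -0.0278 for Pdk3. With the length correction it was 0.0573 for Dlst, 0.0189 for Suclg1 and -0.0091 for Pdk3, and with upper-quartile scaling it was 0.0011 for Suclg1. With a library left out, values ran from -0.25 to 0.0627 for Pdhx, from -0.0203 to 0.11 for Cs, from -0.0119 to 0.0576 for Idh3b, from -0.24 to 0.0766 for Idh2, from -0.0256 to 0.0503 for Sucla2, from -0.105 to 0.11 for Suclg1, from -0.0335 to 0.24 for Mdh1, from -0.0001 to 0.0817 for Got1, from -0.0056 to 0.11 for Pdk1 and from -0.16 to 0.19 for Pdk3.

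The labels number the replicates in both groups, but deviations of same-numbered libraries hardly went together (correlation of 0.0336 across 14682 genes), and nothing says that a number marks a shared animal. With the replicate number as a block, 0 of the 28 genes were called and the median log2 fold change was 0.09, with 20 genes above 0. Depth limited Pcx, Mpc1 and Suclg2 most, with 17 to 123 counts per library.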
